A study of Mus musculus with 8 samples.

Results

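A set of 10 transcripts that mark the red pulp macrophages of the spleen was followed through RNA libraries of sorted regulatory T (Treg) cells. They were Spic, Vcam1, Slc40a1, Hmox1, Mrc1, Csf1r, C1qa, C1qb, C1qc and C6, which are 10 of the 52459 genes listed by symbol, and all 10 were found. They had been chosen by their rise in the 2 unstimulated libraries labelled Stim1/2-deficient, so their values there are a description and carry no test. STIM1 and STIM2 sense calcium in the endoplasmic reticulum and open the plasma membrane channel for store-operated calcium entry, and the study compared Treg cells with and without them. There were 8 libraries, 2 for each of 4 groups, in which Treg cells labelled WT or DKO (double knockout, floxed Stim1 and Stim2 alleles with Foxp3-YFPcre, on C57BL/6) were either unstimulated or kept for 16 h on plates coated with 1 µg/ml of antibodies to CD3 and CD28. As the methods state, both kinds of cell were sorted as CD4+CD25hi from pooled spleens and lymph nodes of several healthy female heterozygous mice, with WT cells lacking and deficient cells carrying YFP. The Foxp3 promoter on the X chromosome drives Cre in these mice, so that each female holds Treg cells of both kinds, and the WT cells carry the floxed alleles undeleted. Age is not given in the sources used here. Unstimulated libraries shared 1 sequencing lane and stimulated libraries another, which both genotypes have in common. The replicate numbers are 3 and 4 for unstimulated WT cells and 1 and 2 for every other group.

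Red pulp macrophages sit in the open blood spaces of the spleen, where they engulf old erythrocytes, break down their heme and return the iron to the blood. The transcription factor SPI-C is required for their development. They display VCAM1, the mannose receptor MRC1 and the CSF1 receptor, which transmits the signal that keeps tissue macrophages alive. Complement component C1q, the starter of the classical complement pathway, is made largely by tissue macrophages. Vcam1 and Hmox1 are also expressed by other cells, such as activated endothelium and cells under oxidative stress.

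The deposited values are reads per gene divided by a size factor for each library, and they are called normalized counts. Libraries held 11851853 to 16306540 reads on genes, and 1 read was worth 0.759 to 1.48 normalized counts. Stim1 had 1139 and 1377 normalized counts in the unstimulated WT libraries and 1538 and 1868 in those labelled Stim1/2-deficient. Stim2 had 906 and 908 against 904 and 744. After stimulation, Stim1 had 645 and 673 in WT against 552 and 642 in labelled libraries, and Stim2 had 665 and 782 against 620.2 and 696. Genes were tested with limma on log2(value + 1), and a call needed an adjusted p under 0.05 with a change above 1.5-fold. Neither targeted gene was called in unstimulated or in stimulated cells, and a count over a whole gene cannot show the loss of single exons, so libraries are named by their labels. The Treg markers Foxp3 and Il2ra were abundant in all 8 libraries, from 4258 normalized counts of Foxp3 and from 6821 of Il2ra upwards.

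The regulatory sequence around the start of 4 of the transcripts is shown because PU.1, the lineage factor of macrophages, recognises purine-rich sites. That the transcripts varied together over the libraries followed from their choice and is no evidence of shared regulation. Sequences were taken from RefSeq on GRCm38.p6 by gene symbol, each from 250 bases before to 50 bases after the start, and 5 of the 10 genes had an entry. Capitals mark the letters GAGGAA or, on the other strand, TTCCTC.
C1qb, chr4:136886151-136886450, minus strand: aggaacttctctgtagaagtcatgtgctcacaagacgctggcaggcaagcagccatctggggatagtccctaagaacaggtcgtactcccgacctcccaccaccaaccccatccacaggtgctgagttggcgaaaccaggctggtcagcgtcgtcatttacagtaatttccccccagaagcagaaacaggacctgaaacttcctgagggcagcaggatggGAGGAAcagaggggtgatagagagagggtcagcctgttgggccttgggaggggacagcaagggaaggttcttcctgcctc
C1qc, chr4:136892865-136893164, minus strand: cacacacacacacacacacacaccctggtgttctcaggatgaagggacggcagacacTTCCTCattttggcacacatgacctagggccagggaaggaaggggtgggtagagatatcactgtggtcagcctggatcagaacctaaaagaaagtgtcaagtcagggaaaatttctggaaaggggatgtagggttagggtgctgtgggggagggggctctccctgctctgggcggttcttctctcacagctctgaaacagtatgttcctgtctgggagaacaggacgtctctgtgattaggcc
Mrc1, chr2:14229164-14229463, plus strand: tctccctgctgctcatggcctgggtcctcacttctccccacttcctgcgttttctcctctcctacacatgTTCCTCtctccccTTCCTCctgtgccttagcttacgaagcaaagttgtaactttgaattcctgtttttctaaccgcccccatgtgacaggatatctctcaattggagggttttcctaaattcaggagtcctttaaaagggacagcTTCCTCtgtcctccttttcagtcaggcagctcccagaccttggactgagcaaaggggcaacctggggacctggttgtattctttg
Spic, chr10:88682974-88683273, minus strand: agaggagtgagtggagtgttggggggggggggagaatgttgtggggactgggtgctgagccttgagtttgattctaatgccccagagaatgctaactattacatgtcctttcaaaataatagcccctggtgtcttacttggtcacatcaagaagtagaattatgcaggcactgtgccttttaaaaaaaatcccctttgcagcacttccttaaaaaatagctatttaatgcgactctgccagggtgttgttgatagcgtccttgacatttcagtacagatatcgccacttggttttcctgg
The Mrc1 window held 3 matches, at 180, 167 and 35 bases before the start. C1qb held 1 match, 30 bases before the start, and C1qc held 1, at 193 bases. Spic and C6 held none of these letters in this window. Of 32851 windows of this length in the same table, 28.3% held the letters on either strand, against 3 of the 5 windows of the macrophage transcripts. The letters TGACNNNGC, the antioxidant response element bound by NRF2, occurred once in C1qb and in no other of the 5 windows, against 12.4% of all windows. A match is a description of the letters and not evidence of binding.

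Spic, the transcription factor of the lineage, had 6.47 and 1.48 normalized counts in the unstimulated WT libraries, against 529.5 and 57.4 in those labelled Stim1/2-deficient. After stimulation it had 1.56 and 0 in WT libraries against 3.18 and 3.38 in labelled libraries, which is at most 4 reads in a library. Both unstimulated labelled libraries thus lay above every other library, with replicate 1 far above replicate 2. The mean was 73.8-fold higher in unstimulated labelled libraries (293 ± 334, SD, n = 2) than in WT (3.97 ± 3.53, n = 2), or 14.4-fold higher with labelled replicate 2 alone. In bulk RNA, more cells of a type and more RNA per cell cannot be told apart.

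The iron genes were higher in the same libraries. Slc40a1 encodes ferroportin, the exporter through which a cell releases iron. It had 7.55 and 5.91 normalized counts in the unstimulated WT libraries against 1040 and 142 in labelled libraries, and 0, 0, 6.35 and 1.69 in the 4 stimulated libraries, WT first. Its mean was 87.8-fold higher in unstimulated labelled libraries (591 ± 635, n = 2) than in WT (6.73 ± 1.16, n = 2), or 21.0-fold higher with labelled replicate 2 alone. Hmox1 encodes heme oxygenase 1, which opens the heme ring and which many stressed cells can induce. It had 71.2 and 42.8 normalized counts in the unstimulated WT libraries against 792 and 108 in labelled libraries, and 34.3, 76.7, 34.2 and 24.5 in the stimulated libraries. Its fold of 7.89 was the lowest of the 10, and with labelled replicate 2 alone it was 1.90-fold above a WT mean of 57.0 ± 20.1 (n = 2). Hmox1 was therefore the member with the highest WT level relative to its labelled level.

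The 3 receptors of the cell surface held most of the reads in the unstimulated labelled libraries. Vcam1, an adhesion molecule that binds the integrin alpha4 beta1, had 73.4 and 91.6 normalized counts in the unstimulated WT libraries and 3027 and 447 in labelled libraries. The stimulated libraries had 59.2 and 48.6 in WT and 21.4 and 17.7 in labelled cells, so that Vcam1 was measured in every library, at 17.7 or more. Mrc1, the mannose receptor that clears glycoproteins, had 14.0 and 5.91 in the unstimulated WT libraries, 2702 and 346 in labelled libraries, and not a single read in any stimulated library. Csf1r, the receptor for CSF1 and IL-34, had 18.4 and 28.1 in the unstimulated WT libraries and 1685 and 227 in labelled libraries. Its 4 stimulated libraries had 10.9, 0.76, 6.35 and 8.44. Unstimulated labelled means were 21.1-fold higher for Vcam1, 153-fold for Mrc1 and 41.2-fold for Csf1r. With labelled replicate 2 alone the folds were 5.42, 34.7 and 9.78.

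The 3 chains of C1q are encoded by neighbouring genes and are assembled in equal parts into the protein. C1qa had no read in either unstimulated WT library and 78.6 and 10.7 normalized counts in the labelled libraries. C1qb had 5.40 and 4.43 against 369 and 52.1, and C1qc had no read against 197 and 41.4. In the 4 stimulated libraries, C1qa had none, C1qb had 2 reads in WT replicate 1 and C1qc had 1 read in labelled replicate 2. C1qa had the fewest reads of the 3 chains. C6, a component of the membrane attack complex, had 0 and 1.48 normalized counts in the unstimulated WT libraries, 485 and 80.1 in labelled libraries and none after stimulation. A count of 3 reads, worth at most 4.43 normalized counts, was taken as the floor for genes that did not exceed it in WT. Against this floor, the unstimulated labelled means of C1qa and C6 were at least 10.1-fold and at least 63.8-fold higher, and C1qb, with 5 and 3 reads in WT, was 42.8-fold higher. With labelled replicate 2 alone they were at least 2.41-fold and at least 18.1-fold for C1qa and C6 and 10.6-fold for C1qb.

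**Figure D1:**
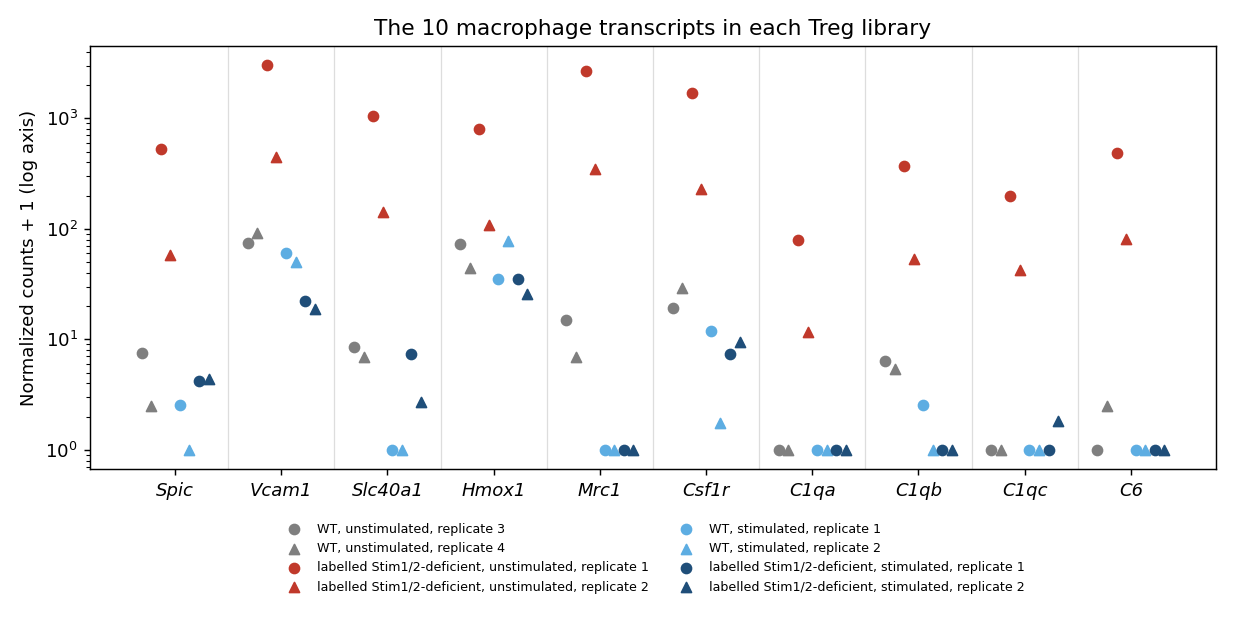
Normalized counts plus 1 (log axis) of the 10 macrophage transcripts in each of the 8 libraries, with colour for the group and shape for the replicate. For all 10 transcripts the unstimulated library labelled Stim1/2-deficient replicate 1 was highest and replicate 2 was next, above the 6 other libraries, and points on the lowest line had no read.

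All 10 transcripts were highest in labelled replicate 1 and second highest in labelled replicate 2 of the unstimulated cells. Of all tested genes, 26.5% lay above both unstimulated WT libraries in both labelled libraries, and nothing is read from the count of the 10, which were chosen by it. Summed over the 10, the libraries had 196 and 182 normalized counts in unstimulated WT, 10906 and 1512 in unstimulated labelled, 108 and 126 in stimulated WT and 71.5 and 56.6 in stimulated labelled cells. As RPM, the reads scaled to all reads on genes in a library, this was 11.2, 10.4, 701, 90.2, 8.88, 10.2, 5.72 and 4.66 in the same order. In normalized counts the summed level in the unstimulated WT libraries was thus above that of all stimulated libraries. As RPM, unstimulated WT replicate 4 (10.4) and stimulated WT replicate 2 (10.2) were nearly equal. The stimulated libraries labelled Stim1/2-deficient had the lowest sums. More than 3 reads were found for 7 and 5 of the 10 in the unstimulated WT libraries, for 3 and 2 in stimulated WT libraries and for 5 and 4 in stimulated labelled libraries. A test required a mean of 10 or more over the 8 libraries, which all 10 reached, but only Vcam1, Hmox1 and Csf1r would have reached it without the unstimulated labelled libraries. The other 7 therefore entered through the libraries in which they were high.

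In the comparison of unstimulated cells, 8 of the 10 were called higher, where 1.38% of the 15419 tested genes were called higher and 3.35% lower. Hmox1 (limma adjusted p = 0.111) and C1qa (0.0746) were not called. Because this comparison chose the transcripts, nothing is read from the share. The count was 2 without labelled replicate 1, namely Mrc1 and Vcam1, 10 without labelled replicate 2 and 0 without either WT replicate. It was 2 with a pseudocount of 0.1 and 1 of 5 tested when a mean of at least 100 was required. The median log2 fold change of the 10 was 5.14, beside -0.01 over all tested genes, and it was 3.65 without labelled replicate 1.

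The proportions among the transcripts were compared between the 2 unstimulated labelled libraries, since RNA from a single source keeps its transcripts in a fixed ratio while its amount varies. Labelled replicate 1 exceeded replicate 2 by 4.76-fold for C1qc to 9.22-fold for Spic, with a median of 7.33. The summed values differed 7.21-fold (exact 95% interval 6.78 to 7.68, which covers counting error only). The interval of the single transcript held this ratio for 9 of the 10. This count is a description, because the sum is made of the same transcripts and intervals from few reads are wide. Vcam1 had a ratio of 6.77 (6.04 to 7.60), Slc40a1 of 7.35 (6.01 to 9.06), Hmox1 of 7.32 (5.81 to 9.32), Mrc1 of 7.81 (6.87 to 8.91) and Csf1r of 7.42 (6.33 to 8.74). Spic had 9.22 (6.75 to 12.9), C1qa 7.36 (3.55 to 17.7), C1qb 7.09 (5.08 to 10.1) and C6 6.06 (4.62 to 8.07). The exception, C1qc, had 4.76 (3.24 to 7.21), with an upper bound just under the unrounded summed ratio, and rested on 31 reads in replicate 2. After the mean of the unstimulated WT libraries was subtracted from both, the ratios ran from 4.76 for C1qc to 14.4 for Hmox1, with a median of 7.87, and the summed ratio was 8.10. The ratio was thus highest for Hmox1, the transcript with the highest relative level in WT cells. This ratio has no interval and rests on 108 normalized counts in labelled replicate 2 against a WT mean of 57.0 ± 20.1 (n = 2). Whether Hmox1 differed from the rest was not tested. Purified red pulp macrophages were not analysed here, so these proportions were not set against those of the cell type itself, and whether macrophage RNA was carried over into the sort was not tested.

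Shares of the summed reads differed little between the libraries for most transcripts, and in relative terms most for C1qc and Spic. Vcam1 made up 27.8% (exact 95% binomial interval 26.9 to 28.6) of the 10401 reads on the 10 transcripts in labelled replicate 1 and 29.6% (26.9 to 32.3) of 1132 reads in replicate 2. Mrc1 made up 24.8% and 22.9%, Csf1r 15.5% and 15.02%, and Slc40a1 9.54% and 9.36%. Spic had 4.86% (4.45 to 5.29) and 3.80% (2.76 to 5.08), and C1qc 1.81% (1.56 to 2.08) and 2.74% (1.87 to 3.86). Among the C1q chains alone, C1qb held 352 of 615 reads and 39 of 78, C1qc 188 and 31, and C1qa 75 and 8, so that C1qb was the most frequent chain in both libraries and C1qa the least. Across the 10 transcripts, log10 values of the 2 libraries had a Pearson's r of 0.989, as a description of transcripts that are not independent replicates.

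**Figure D2:**
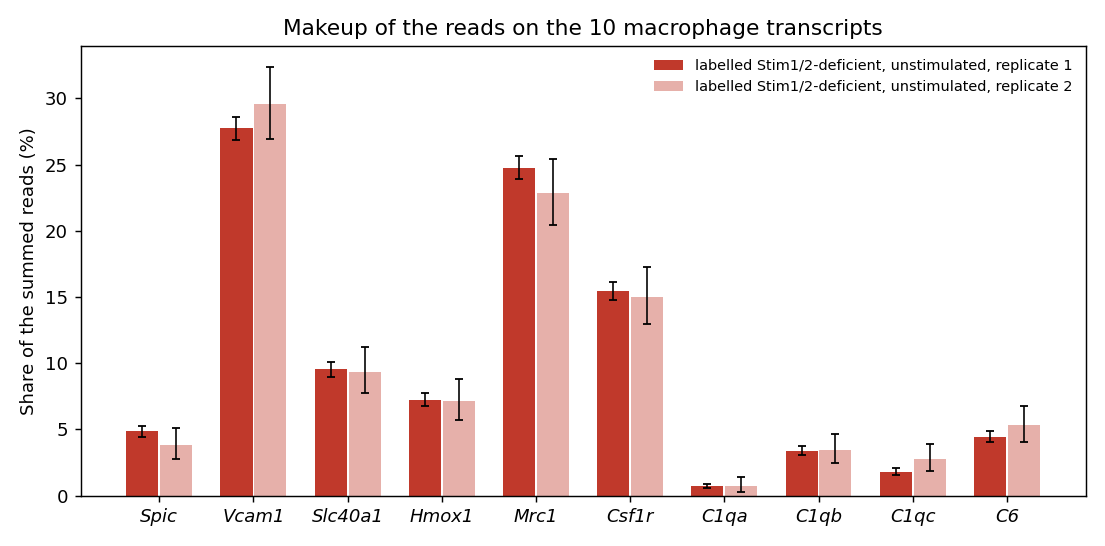
Share (%) of each transcript in the summed reads of the 10 macrophage transcripts in the 2 unstimulated libraries labelled Stim1/2-deficient, with exact 95% binomial intervals that cover counting error only. The paired bars run from 0.72% and 0.71% for C1qa to 27.8% and 29.6% for Vcam1. The largest relative differences were those of C1qc (1.81% and 2.74%) and Spic (4.86% and 3.80%).

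Per kilobase of exon, Vcam1 had the highest level in labelled replicate 1, with 616 normalized counts per kilobase, followed by Mrc1 (454), Hmox1 (366), C1qb (339), Csf1r (322) and Slc40a1 (308). Lower levels were those of Spic (138), C6 (120), C1qc (102) and C1qa (75.6). In labelled replicate 2 the first 6 had the same order, from 91.0 for Vcam1 to 41.9 for Slc40a1, and they were followed by C1qc (21.4), C6 (19.9), Spic (14.95) and C1qa (10.3). Each SD over the 2 libraries was about as large as its mean, so that differences in level between transcripts were not tested. The order within a library is a description, as exon lengths came from merged gene models and not from the isoforms present.

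The same ratio was computed for other genes as a description. Over the 15351 tested genes with a value in labelled replicate 2, the median ratio of replicate 1 to replicate 2 was 1.02. A ratio of at least 5 was found for 337 (2.20%) of them and for 9 of the 10 transcripts. Because the values of these 2 libraries chose the transcripts, nothing is read from that share. Other genes of red pulp macrophages, 12 in number, had a median ratio of 7.41, and the summed ratio was 6.61 (6.02 to 7.27). Adgre1, which encodes the macrophage marker F4/80, had a ratio of 8.76, Mertk, a receptor for dying cells, 7.55, Itgad, the integrin CD11d of red pulp macrophages, 7.44, and Cd163, the scavenger receptor for hemoglobin, 7.80. Of the 12, Axl, a receptor related to MERTK, with 4.65 (3.92 to 5.54), and Nr1h3, the nuclear receptor LXR alpha, with 3.21 (1.64 to 6.89), had intervals below the summed ratio of the 10 transcripts.

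Markers of several other cell types were also higher in labelled replicate 1 than in replicate 2, by smaller summed ratios. Platelet genes were not, with a summed ratio of 0.84 (0.58 to 1.23). The summed ratio was 4.30 (3.93 to 4.71) for 10 B cell genes, 2.92 (2.51 to 3.40) for CD8 T and NK cells, 2.83 (2.41 to 3.34) for dendritic cells, 2.81 (2.23 to 3.58) for erythroid cells, 2.33 (2.08 to 2.61) for neutrophils and 2.23 (1.95 to 2.56) for monocytes. General genes of mononuclear phagocytes, many of which other leukocytes also express, had 2.52 (2.40 to 2.65). The 11 T and Treg cell genes had 0.84 (0.83 to 0.85). The interval of each of these summed ratios lay below that of the 10 transcripts. The 3 genes of the marginal zone and of metallophilic macrophages had a summed ratio of 5.78 (3.07 to 12.04), an interval that holds 7.21. Some sums rested on genes that the WT cells also expressed, such as Ccr2 with 518 of the 841 monocyte reads in labelled replicate 1 and Zbtb46 with 114 of the 191 dendritic cell reads in replicate 2.

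The WT mean was therefore subtracted from the other lists as well, a step chosen after seeing the data, and ratios were taken for the genes that stayed above it in both labelled libraries. Their median ratio was 7.61 for 4 dendritic cell genes and 14.6 for 5 genes of CD8 T and NK cells, beside 7.87 for the 10 transcripts. It was 6.00 for 13 general phagocyte genes, 5.73 for 8 B cell genes, 4.92 for 5 erythroid genes, 3.14 for 8 neutrophil genes and 2.53 for 2 monocyte genes. For dendritic cell genes this median was close to that of the 10 transcripts, with single genes from 3.45 to 13.5. For CD8 T and NK cell genes it was above, with single genes from 3.46 to 24.2. These ratios have no interval, and the highest rested on small differences. Eomes, with 24.2, had 29.4 normalized counts in labelled replicate 2 against 29.1 and 25.1 in WT. Klra8, with 18.0, had 1 read in labelled replicate 2. Both were chosen after their values were seen, and whether this list differed from the 10 transcripts was not tested. The lowest ratios of both lists were below 4.76, the lowest of the 10 transcripts. The same held for the other red pulp macrophage genes, of which 10 stayed above WT, with a median of 8.16 and a lowest ratio of 3.53. The lowest ratio thus did not set red pulp macrophage genes apart from these 2 lists.

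**Figure D3:**
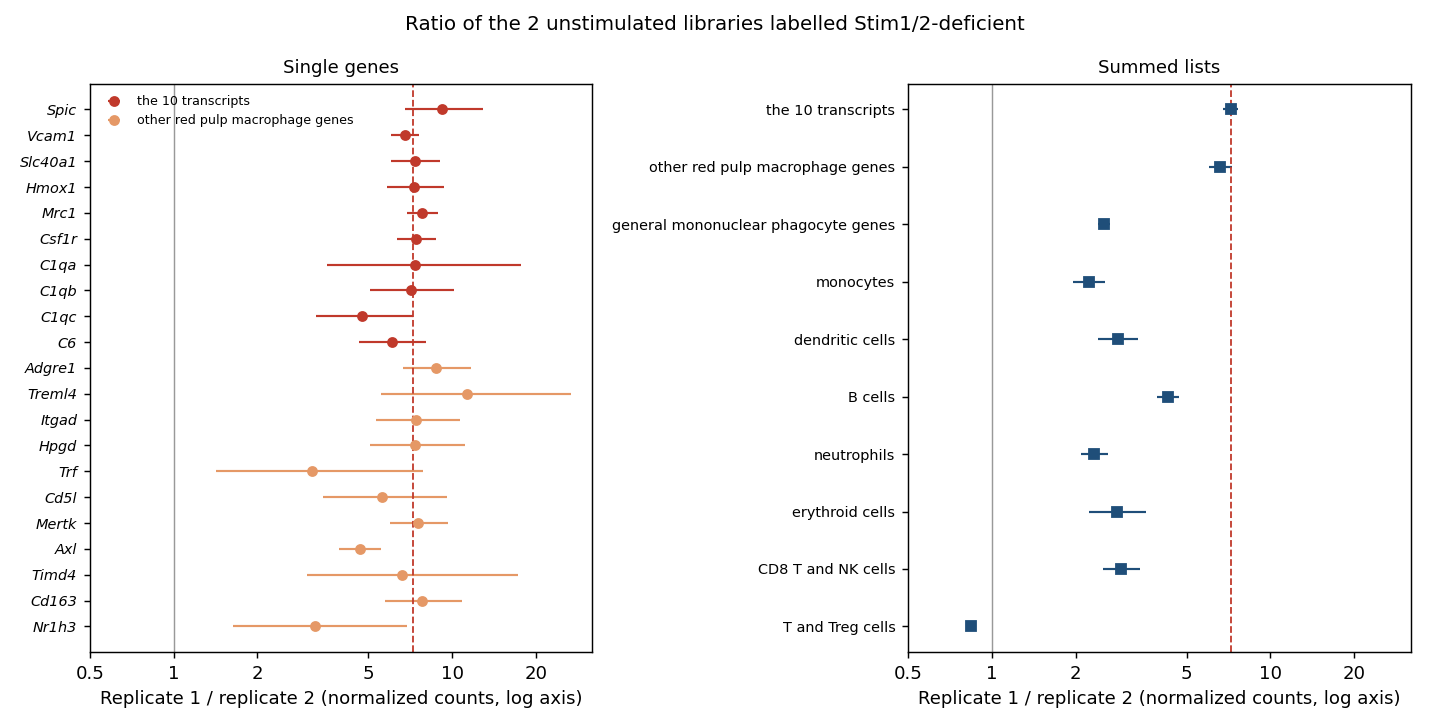
Ratio of labelled replicate 1 to labelled replicate 2 of unstimulated cells (normalized counts, log axis) for single genes (the 10 and 11 of the 12 other genes of red pulp macrophages), on the left, and for summed lists, on the right, with exact 95% intervals that cover counting error only. The dashed line is the summed ratio of the 10 transcripts, 7.21, which the intervals of 9 of them hold and which lies above the intervals of the lists from general mononuclear phagocytes to T and Treg cells, where no WT level was subtracted.

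The stimulated cells did not take part in the choice of the transcripts and were tested. None of the 10 was called between stimulated labelled and WT libraries, where 0.162% of tested genes were called higher and 0.110% lower in labelled libraries. At an unadjusted p under 0.05 the count was 0 by limma and by edgeR's quasi-likelihood test and 1 by DESeq2. Neither edgeR nor DESeq2 called any of the 10. Vcam1, 1 of 3 genes with more than 3 reads in both groups of stimulated cells, was lower in both labelled libraries, with a fitted log2 change of -1.41 (limma adjusted p = 0.404, standard error 0.69), and its groups did not overlap, where 23.1% of the tested genes were lower in both labelled libraries than in both WT libraries. Hmox1 changed by -0.81 (standard error 0.78, limma adjusted p = 0.711) and its groups also did not overlap, although 34.3 in WT replicate 1 and 34.2 in labelled replicate 1 were almost equal. Csf1r changed by 0.86 (standard error 1.01, limma adjusted p = 0.770), and by -0.52 without WT replicate 2. These fold changes are on the log2(value + 1) scale.

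The other 7 were too low for a fold in stimulated cells. Slc40a1 had no read in the stimulated WT libraries and 8 and 2 reads in the labelled libraries (limma adjusted p = 0.371). Spic had 2 and 0 reads in WT and 4 and 4 in labelled libraries (limma adjusted p = 0.637). Mrc1, C1qa, C1qb, C1qc and C6 did not exceed 3 reads in any stimulated library, and 3 of them had none. A difference in these 5 between genotypes was not detectable at this depth.

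Genes that accompany the 10 in red pulp macrophages were looked at next. Of 12 such genes, 11 were tested and 4 were called higher in unstimulated labelled libraries, and none in stimulated libraries. Only 3 of the 11, Adgre1, Axl and Trf, would have reached the required mean of 10 without the unstimulated labelled libraries, so the calls of the others are no support for a difference. Adgre1 had 6.47 and 11.8 normalized counts in the unstimulated WT libraries and 667 and 76.1 in labelled libraries (limma adjusted p = 0.0444). Mertk had 10.8 and 2.95 against 776 and 103 (0.0296), Cd163 had 5.40 and 2.95 against 469 and 60.1 (0.0335), and Itgad had 1.08 and 4.43 against 377 and 50.8 (0.0338). In these 4 genes labelled replicate 1 was highest and replicate 2 next among the unstimulated libraries. This held against both WT libraries for 10 of the 12 genes and for 9 of the 11 tested, where 26.5% of all tested genes did the same. Axl had 813 and 827 in WT and 975 and 210 in labelled libraries and was not called. No call of this list was made without labelled replicate 1, with a mean of at least 100 or with a pseudocount of 0.1, and 6 were made without labelled replicate 2. In unstimulated cells no gene of any list outside the 10 was called without either WT replicate.

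General genes of mononuclear phagocytes, 20 in all with 16 tested, had 3 calls in unstimulated cells, all higher. Sirpa, an inhibitory receptor for CD47, had 3.24 and 10.3 normalized counts in WT against 804 and 88.1 in labelled libraries (limma adjusted p = 0.0227). Mpeg1, a pore-forming protein of phagocytes, had 54.0 and 60.6 against 1046 and 232 (0.0397), and Lyz2, lysozyme, had 34.5 and 35.4 against 375 and 138 (0.0264). Ctss and Irf8, which were the most abundant genes of the list, were not called. Of the 16 tested, 8 had higher values in each labelled library than in either WT library, beside 26.5% of all tested genes. Cebpa and Cebpb, chosen after their values were seen, and Ctss had lower values in both labelled libraries, and none was called. Cebpa had 46.4 and 28.1 in WT against 7.34 and 8.01 in labelled libraries (log2 fold change -2.10). For Cebpb these were 47.5 and 29.5 against 11.5 and 18.7 (-1.29), and for Ctss 2304 and 2108 against 2063 and 1458 (-0.35). None of the 3 calls was made without labelled replicate 1 or with every gene above 0 tested. The 3 genes of the marginal zone and of metallophilic macrophages were too low to be tested, with summed values of 12.95 and 2.95 in WT against 84.9 and 14.7 in labelled libraries. Ccr2, the receptor by which monocytes leave the bone marrow and which activated T cells also express, was called lower, with 2017 and 1909 in WT against 543 and 211 (log2 fold change -2.53, limma adjusted p = 0.0167). The other 5 monocyte genes were not called.

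**Figure D4:**
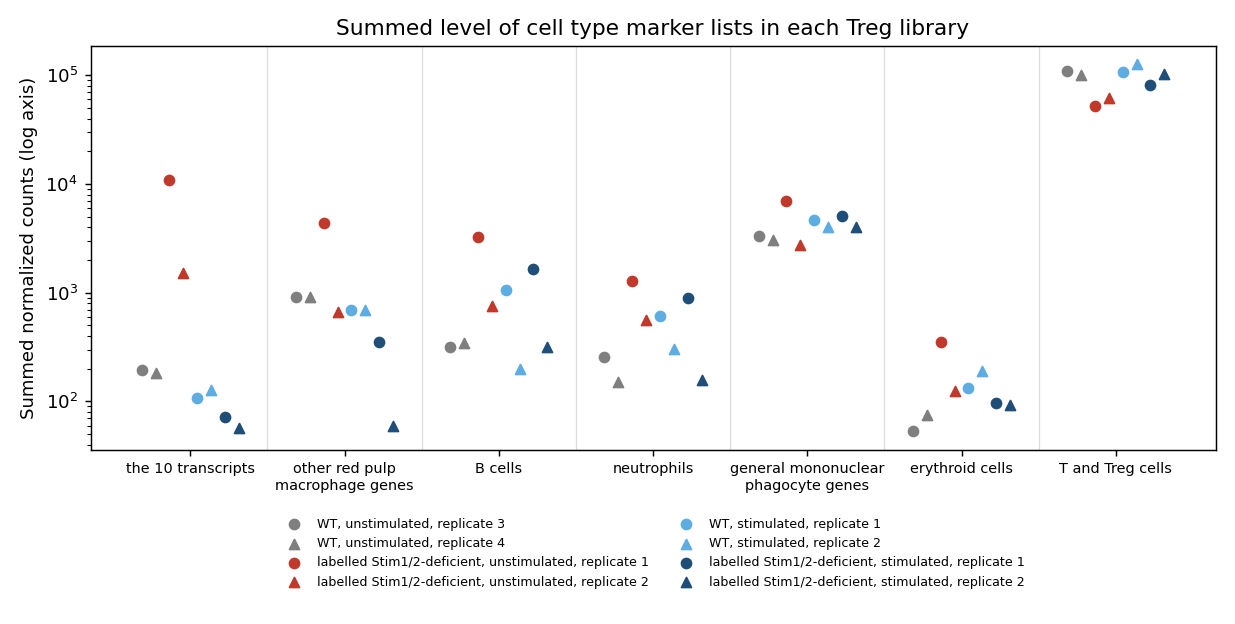
Summed normalized counts (log axis) of the 10 macrophage transcripts and of 6 marker lists in each of the 8 libraries, with colour for the group and shape for the replicate. The 10 transcripts reach 10906 and 1512 in the unstimulated labelled libraries and stay between 56.6 and 196 elsewhere, whereas B cell genes range from 197 to 3271 and also reach 1637 in a stimulated library.

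B cell genes moved with the transcripts in unstimulated cells, with summed normalized counts of 316 and 346 in WT against 3271 and 761 in labelled libraries. All 10 were tested, 7 lay above both WT libraries in both labelled libraries and 1 was called higher, whereas none was by edgeR or without labelled replicate 1. Of all tested genes, 26.5% lay above both WT libraries in both labelled libraries and 1.38% were called higher. In stimulated cells the B cell sums were 1063 and 197 in WT against 1637 and 317 in labelled libraries. B cell genes thus remained measurable where the 10 macrophage transcripts were at 56.6 to 126 in sum. Neutrophil genes had sums of 256 and 151 against 1295 and 556, and erythroid genes 52.9 and 75.3 against 353 and 126, with no gene called. All 10 neutrophil genes and 6 of the 10 erythroid genes lay above both WT libraries in both labelled libraries. Among those tested these were 7 of 7 and 2 of 3, beside the 26.5% of all tested genes. Only 4 of these 7 and 1 of these 3 would have reached the required mean without the unstimulated labelled libraries. Dendritic cell genes had 256 and 292 against 722 and 255, and CD8 T and NK cell genes 328 and 273 against 865 and 296, also with no gene called. Zbtb46 (214 and 238) and Cd8b1 (233 and 180) held most of these WT sums. Of the 8 dendritic cell genes 5, and of the 6 CD8 T and NK cell genes 5, lay above both WT libraries in both labelled libraries. Among those tested these were 3 of 5 and 4 of 5, beside the 26.5% of all tested genes. Itgax, the integrin CD11c, chosen after its values were seen, had 5.40 and 5.91 in WT against 236 and 30.7 in labelled libraries (limma adjusted p = 0.172). Platelet genes had 58.3 and 54.6 against 64.0 and 76.1. Endothelial genes had sums of 4.01 to 31.0 and stromal genes of 0.84 to 51.4 over the 8 libraries, and none of either list could be tested. In each of these 2 lists, 4 of 8 genes had at most 3 reads in every library. T and Treg cell genes had 109939 and 101137 in WT against 52067 and 61750, and Ctla4 and Ikzf2 were called lower. What these other cells contributed to the values of the 10 transcripts was not tested.

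The genes around iron and heme differed among themselves. Of 21 listed genes, 17 were tested and 1 was called in unstimulated cells, Nfe2l2, which encodes NRF2, with 660 and 759 normalized counts in WT against 1206 and 1238 in labelled libraries (log2 fold change 0.79, limma adjusted p = 0.0451). Its labelled replicates were nearly equal, with a ratio of 0.97. The call was not made with 4 libraries alone, by edgeR, with every gene above 0, with a pseudocount of 0.1 or without labelled replicate 1. The ferritin heavy chain Fth1 had 7800 and 6167 against 3271 and 5195 and was not called (limma adjusted p = 0.0943), nor was Tfrc, the transferrin receptor, with 2541 and 2352 against 1206 and 2475. Other genes of the list, chosen after their values were seen, were higher in both labelled libraries and most so in replicate 1. Lrp1, a receptor that takes up heme bound to hemopexin, had 3.24 and 2.95 in WT against 542 and 103 in labelled libraries, with a ratio of 5.27 (limma adjusted p = 0.0527), and it was called with 4 libraries alone. Slc11a1, the phagosomal metal transporter NRAMP1, had 16.2 and 13.3 against 124 and 30.7, and Blvrb, a biliverdin reductase, had 21.6 and 10.3 against 114 and 24.0, and neither was called. In all, 6 of the 17 tested genes lay above both WT libraries in both labelled libraries, beside the 26.5% of all tested genes. The summed ratio of replicate 1 to 2 in this list, in which Fth1, Tfrc and Ireb2 were the most abundant, was 0.76. The median log2 fold change was 0.07 in unstimulated and 0.28 in stimulated cells, where no gene of the list was called.

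Among 28 other complement genes, 9 were tested. Only Cr2, the complement receptor of B cells and follicular dendritic cells, was called in unstimulated cells, with 35.6 and 39.9 normalized counts in WT against 606 and 176 in labelled libraries (log2 fold change 3.08, limma adjusted p = 0.0173). It was also called without labelled replicate 1 but not without either WT replicate, and its replicate ratio of 3.44 (2.84 to 4.19) lay below that of the 10 summed transcripts. Cfp, which encodes properdin, had 33.5 and 44.3 against 262 and 86.8 and was not called (limma adjusted p = 0.102). Of the 28, 9 had at most 3 reads in every library. Of 8 further scavenger receptors, 4 were tested and none was called.

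Partners of VCAM1 and CSF1R were measured in the same libraries. Itga4, which encodes the alpha4 integrin chain, had 4986 and 5966 normalized counts in the unstimulated WT libraries against 11389 and 7830 in labelled libraries. It was not called (limma adjusted p = 0.0660). Itgb1, which encodes the beta1 chain, was lower, with 5411 and 4466 against 2944 and 1461, and was not called (limma adjusted p = 0.0531). DESeq2 called Itga4 higher and Itgb1 lower. Itgb7 had 2321 and 1849 against 1725 and 1497 and was not called. Csf1, the ligand of the CSF1 receptor, was called lower, with 303 and 267 against 142 and 78.8 (log2 fold change -1.42, limma adjusted p = 0.0423). Both labelled libraries lay below both WT libraries for Csf1. The call was not made with 4 libraries alone, by edgeR, with equal totals or upper quartiles, with every gene above 0 or without labelled replicate 2.

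The 15 genes outside the 10 listed next were closest to their mean log2 level over the 8 libraries, with Pearson's r from 0.974 to 0.997. These correlations describe libraries that share the 2 high samples. The closest were Adamdec1, a secreted metalloprotease (r = 0.997), Clec1b, the receptor CLEC-2 (0.997), and Igf1, a growth factor made by tissue macrophages (0.995). They were followed by Itgad, Slc1a3, a glutamate transporter, Cd163, Pirb, Cadm1, Fcna, Nqo2, AC165080.3, Slc16a9, Mertk, Abca9 and Paqr9. Igf1 had 1.08 and 2.95 normalized counts in the unstimulated WT libraries, 568 and 70.8 in labelled libraries and none after stimulation. Fcna, ficolin A of the lectin pathway of complement, had none in WT, 118 and 21.4 in labelled libraries and none after stimulation. The replicate ratios of the 15 had a median of 7.44, and Nqo2 (1.61), AC165080.3 (2.30) and Pirb (2.69) had the lowest. Only 3 of the 15, Itgad, Cd163 and Mertk, were in the lists above. Between single members, r over the 8 libraries ran from 0.801 to 0.988 with a median of 0.937 over 45 pairs.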

How the data were processed

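The data are RNA sequencing of 8 Treg libraries. The methods state single reads aligned to NCBIM37 with Bowtie and counted with HTSeq, whereas the submitters' processing notes name bcl2fastq 1.8.4, STAR 2.7, DESeq2 and mm10, and the deposited table holds gene symbols without coordinates. The methods and the labels also name different TruSeq kits, and whether counting used strand is not given in the sources used here. The deposited signal values are counts scaled by the authors with a single size factor for each library and given to 2 decimals. Division by the value of a read gave whole numbers for 100% of them (tolerance 0.01). The methods also name Picard for the removal of PCR duplicates, and whether this was done for the deposited table is not given in the sources used here. Intervals and floors cover counting error only.

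Log2(value + 1) was fitted with limma 3.58.1 (eBayes with trend) in R 4.3.3 for the 15419 genes whose mean reached 10 normalized counts, in 1 model of 4 groups, 2-sided, with Benjamini-Hochberg adjustment over all tested genes. A call needed an adjusted p under 0.05 with a change above 1.5-fold. Ratios of labelled replicates 1 and 2 used recovered reads, an exact conditional binomial 95% interval and the size factors. Alternatives were edgeR 4.0.16 and DESeq2 1.42.0 on recovered reads, other pseudocounts, filters and scalings, 4 libraries alone, each library left out, and the replicate number as a term. The fits were tested on simulated data. The transcripts, the lists and the tests were chosen with earlier results of these data known. Named were the transcripts, Stim1 and Stim2, called genes and up to 4 of the most abundant other genes of each list, and the 15 genes of the most similar pattern. Exon lengths came from merged gene models on NCBIM37. Libraries are pools of mice, and whether stimulated and unstimulated libraries share a pool is not given in the sources used here. The heme regulator Flvcr1 was not used here. Values of 2 genes of the lists are not reported here.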

Additional observations from a re-analysis of the deposited data

Results flagged for a closer look

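Vcam1 and Hmox1 were higher in both labelled libraries than in both WT libraries when unstimulated, and lower in both labelled libraries than in both WT libraries when stimulated. The log2 fold changes in stimulated cells were -1.41 for Vcam1 and -0.81 for Hmox1, neither of which was called. Of the tested genes, 26.5% were higher in both labelled libraries when unstimulated and 23.1% lower in both when stimulated. For Hmox1 the stimulated groups were separated by 34.3 against 34.2 normalized counts, or 44 against 43 reads. The difference between the comparisons was not tested, because the unstimulated comparison chose the transcripts. With each stimulated library left out in turn both values stayed below 0.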

How the results depend on the processing

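None of the 10 transcripts was called in stimulated cells under any alternative run, where 7 of them were too low for a fold, so that this says nothing of their stability. In unstimulated cells that median, 5.14, was 3.65 to 6.63 with a library left out, lowest without labelled replicate 1. Of all genes, 730 were called in unstimulated cells, 338 with 4 libraries alone, 362 on every gene with a value above 0, 484 by edgeR, 1321 by DESeq2 and 8 to 1298 with a library left out, lowest without WT replicate 3 and highest without labelled replicate 2. Of the listed genes outside the 10, 14 were called, 9 with 4 libraries alone, 5 on every gene, 7 with a pseudocount of 0.1, 32 by DESeq2 and 0 to 26 with a library left out, lowest without either WT replicate. In stimulated cells 42 genes were called, 1 with 4 libraries alone, 1 on every gene, 1 by edgeR, 525 by DESeq2, 8 and 74 with pseudocounts of 0.1 and 5, 82 with a mean of at least 100 and 0 to 762 with a library left out, highest without labelled replicate 1. Whether the replicate numbers pair the stimulated libraries is not given in the sources used here (r of replicate deviations 0.17 over 2 pairs). With the replicate block, which rests on these numbers, the count in stimulated cells was 393. Listed genes called there numbered 0, 3 by DESeq2, 5 with the replicate block and 0 to 8 with a library left out. The summed replicate ratio of 7.21 was 7.77 with equal totals, 7.70 with equal upper quartiles and 8.10 with the WT mean subtracted, alternatives chosen after seeing the data. The log2 fold change of Csf1r in stimulated cells was -0.52 to 2.24 with a library left out, lowest without WT replicate 2. Of the genes called in unstimulated cells 29.2% were higher, 38.7% by DESeq2, 40.6% with equal totals and 46.3% with equal upper quartiles. Under the last 2, all tested genes had a median log2 fold change of 0.11 and 0.15, and with a mean of at least 100 of -0.10. The causes of these changes were not tested. The 1132 reads on the 10 transcripts in labelled replicate 2 limit how closely proportions can be compared.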
